A study of Mus musculus with 2 samples.

Results

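Transcripts of 38 lysosomal genes were compared between M1-like bone marrow derived macrophages (BMDMs) of FRβ KO mice and of WT mice. The genes were taken by symbol as a set covering lysosomal proteases, glycosidases, proteins of lipid handling, membrane proteins, subunits of the proton pump and the transcription factors *Tfeb* and *Tfe3*. They are 38 of the 54532 gene identifiers in the count table, and each had at least 1000 counts over both libraries. In FRβ KO macrophages the 38 genes together took 6.65% of all counts, against 7.18% in WT macrophages. Most of them differed little: the KO/WT ratios ran from 0.790 to 1.08 with a median of 0.972. Summed counts of the cysteine cathepsins, prosaposin and the proton pump members had ratios below 1, as did most very abundant genes of these libraries. Genes of membrane proteins of late endosomes and lysosomes went both ways. *Lamp1*, *Cd68* and *Scarb2* lay slightly above 1, and *Cd63* and *Lamp2* lay below it. *Neu1*, *Npc1* and *Gaa*, of other groups, were also slightly above 1.

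Lysosomes are acidic organelles that break down material taken up by phagocytosis or delivered by autophagy. A proton pump, the vacuolar ATPase, moves protons into the lumen, where hydrolases that work best at low pH cut proteins, sugar chains and lipids. Macrophages hold many lysosomes and use them to digest microbes and dead cells and to process antigens. TFEB and TFE3 are transcription factors that bind a short DNA element of the E-box type, with the core CACGTG, near the start of many lysosomal genes.

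The tested cells came from FRβ KO male mice and the control cells from WT male mice, both C57BL/6. In the KO mice the *Folr2* gene, which encodes folate receptor β, carries an inserted neomycin resistance gene. The RNA of 3 mice was pooled for each genotype before sequencing. Each genotype is therefore 1 library, and the spread between mice cannot be seen. Bone marrow of both genotypes was grown for 7 days in RPMI medium with 10% FBS and 20 ng/mL M-CSF, a growth factor that drives macrophage differentiation. For the next 24 hours the cells received 20 ng/mL IFNγ and 1 ng/mL LPS, which is bacterial lipopolysaccharide. WT mice were bought as young adults and the KO mice were bred in house, from a line made on the SWV background and crossed to C57BL/6. The age at which marrow was taken for these libraries and the meaning of FA_N in the sample names were not found in the sources used here, and the labels call the medium regular.

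*Folr2* had 2 counts in the FRβ KO library and 0 in the WT library, both within the 3 counts that a count of 0 allows, so this gene cannot serve as a check of the genotype labels here. The FRβ KO library held 19742619 counts over 19090 genes and the WT library 18871271 over 18945. Mitochondrial transcripts took 1.69% of the counts in FRβ KO and 1.62% in WT. Of 10 macrophage markers all were detected, among them *Csf1r* with 30125 counts in FRβ KO and 27506 in WT. Of the 10 T cell markers 7 had fewer than 10 counts over both libraries, of the 10 B cell markers 8, of the 10 mast cell or basophil markers 7, of the 10 fibroblast markers 6 and of the 9 erythroid markers 8. Of 10 neutrophil markers 5 were measured, nearly all of their counts from *S100a8* (407 in FRβ KO and 652 in WT), while *Ly6g* had at most 3 counts in either library. Of 10 dendritic cell markers 8 were measured. *Clec9a* had 339 counts in FRβ KO and 237 in WT, and *Irf4* had 320 in FRβ KO and 304 in WT. *Zbtb46* had 109 in FRβ KO and 138 in WT, while *Siglech* and *Cd209a* were at 0 in both. In such bulk samples, fewer cells of a type and less RNA per cell cannot be told apart.

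Because the E-box is the element through which TFEB and TFE3 are known to act on this gene set, 4 promoters are shown first. They were chosen by how far the counting interval (explained below with the ratios) stays from 1, taking the 2 highest and the 2 lowest members whose promoters could be used here. Each runs from 250 bases before to 50 bases after the RefSeq start (GRCm38.p6), and CACGTG is in capitals. The first 2 belong to members higher in FRβ KO and the other 2 to members lower in FRβ KO. By this measure *Atp6v1b2* lay farther from 1 than *Cd63* and *Glb1*, and *Npc1* farther than *Cd68*, but their promoters were not used here, and by the ratio alone *Neu1* and *Gaa* were as high as or higher than *Lamp1* and *Cd68*. *Lamp1* (chr8:13158911-13159210, plus strand) held 4 E-boxes and *Glb1* (chr9:114400828-114401127, plus strand) held 1, while *Cd68* (chr11:69666121-69666420, minus strand) and *Cd63* (chr10:128909095-128909394, plus strand) held none. The RefSeq start used for *Cd63* lies inside the span of the gene in GENCODE M21, which begins at 128900989.
Lamp1: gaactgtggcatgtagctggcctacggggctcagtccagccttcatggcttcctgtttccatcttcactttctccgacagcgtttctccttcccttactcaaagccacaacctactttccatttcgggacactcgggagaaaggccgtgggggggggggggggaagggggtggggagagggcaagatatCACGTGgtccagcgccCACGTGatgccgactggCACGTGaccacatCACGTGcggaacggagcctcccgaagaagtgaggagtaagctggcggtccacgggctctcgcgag
Cd68: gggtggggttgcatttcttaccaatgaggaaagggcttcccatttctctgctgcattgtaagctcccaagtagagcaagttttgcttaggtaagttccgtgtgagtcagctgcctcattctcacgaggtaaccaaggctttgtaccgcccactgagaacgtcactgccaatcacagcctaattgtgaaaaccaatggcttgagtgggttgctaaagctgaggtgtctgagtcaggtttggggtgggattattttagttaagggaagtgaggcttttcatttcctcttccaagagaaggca
Cd63: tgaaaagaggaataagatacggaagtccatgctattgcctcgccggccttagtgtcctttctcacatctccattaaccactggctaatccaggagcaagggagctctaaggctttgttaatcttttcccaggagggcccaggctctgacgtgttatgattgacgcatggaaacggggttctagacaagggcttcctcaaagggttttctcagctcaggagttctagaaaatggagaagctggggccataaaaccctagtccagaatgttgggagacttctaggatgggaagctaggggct
Glb1: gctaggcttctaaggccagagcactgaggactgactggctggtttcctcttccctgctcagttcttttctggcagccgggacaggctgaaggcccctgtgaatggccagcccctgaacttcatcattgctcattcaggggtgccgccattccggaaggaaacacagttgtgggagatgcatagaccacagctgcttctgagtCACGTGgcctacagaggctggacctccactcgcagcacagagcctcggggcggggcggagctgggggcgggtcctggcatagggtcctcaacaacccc

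The E-box was frequent in this gene set. A promoter was found for 31 of the 38 members, and 10 of them (32.3%) held CACGTG, a sequence that reads the same on both strands. Among all 27025 genes with a promoter of the same length the share was 7.24%, and among the 4667 of these with at least 1000 counts it was 11.5%. The longer form TCACGTGA, which contains the core and is also the same on both strands, was in 5 members (16.1%), against 1.01% of all genes and 2.64% of those with at least 1000 counts. High shares were not particular to the members. In the other lists described below, CACGTG was in 37.5% of 8 other proteases, 30% of 20 delivery genes and 28.6% of 21 TFEB and TORC1 regulators. It was in 13.3% of 15 other glycosidases and sulfatases, 9.09% of 11 lipid hydrolases and activators and 0% of 8 protease inhibitors. TCACGTGA was in 20% of the delivery genes. Of 16 matches in the members, 10 began within 100 bases before the start. *Lamp1* carried 4 of them, beginning 61, 45, 28 and 15 bases before the start. *Ctsd*, *Mcoln1*, *Gla*, *Atp6v1a* and *Atp6v0d1* carried the longer form. A match says only that these letters are in the window.

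The KO/WT ratios of members with and without the element overlapped. The 10 members with CACGTG had a median log2 ratio of -0.002 and ran from 0.790 (*Glb1*) to 1.07 (*Gaa*). Of these, 2 had a counting interval above 1 (20%), 4 below 1 (40%), and 4 held 1. The 21 members without it had a median log2 ratio of -0.05 and ran from 0.819 (*Cd63*) to 1.08 (*Neu1*), with 3 intervals above 1 (14.3%), 12 below 1 (57.1%), and 6 that held 1. Of all genes with at least 1000 counts, 21.3% were above 1 and 23.8% below 1. Whether members with and without the element differ was not tested.

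**Figure D1:**
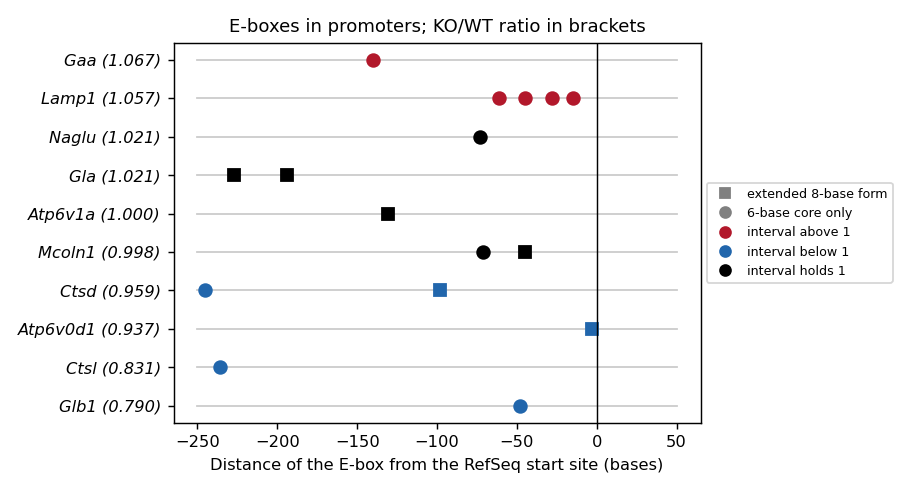
Position of each CACGTG match (x axis, bases from the RefSeq start, which is at 0) in the 10 members that carry one, ordered by KO/WT ratio from the highest at the top. Squares mark the longer form and circles the core alone, and colours give the position of the counting interval: members above 1, below 1 and holding 1 all appear, and *Lamp1* holds 4 matches close to its start.

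Ratios were computed from the deposited counts after scaling for library size by TMM, and each has an exact 95% interval that covers counting error only. An interval is written after its ratio. Of the 38 members, 6 had an interval above 1 (15.8%), against 21.3% of the 5846 genes with at least 1000 counts, and 19 had an interval below 1 (50%), against 23.8%. Another 13 held 1. Most members have more counts than most genes of this background, and more counts make an interval narrower. These shares are therefore not matched for abundance, also where they stand beside the groups of members below. Over the 14489 genes with at least 10 counts the shares were 14.7% above and 16.8% below. Of the members 0 had their whole interval over 25% above 1 (background 0.855%), 0 over 20% below 1 (background 1.51%), and 0 past 2-fold (background 0.718% of genes with at least 10 counts). By the point ratio alone, 1 member (*Glb1*) was past these limits of 25% and 20%, against 5.97% of genes with at least 1000 counts. The median log2 ratio was -0.04 in the members and -0.001 in all genes with at least 1000 counts.

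Among the most abundant genes most intervals were below 1. Counts of the 10 members with at least 50000 over both libraries gave 8 intervals below 1 (80%) and 1 above 1 (10%), against 64.4% and 28.8% of all 73 genes of that abundance. Their median log2 ratio was -0.13, and that of the other 63 genes -0.07. The 28 less abundant members had a median log2 ratio of -0.005, with 11 intervals below 1 (39.3%) and 5 above 1 (17.9%). Of the 5773 genes with at least 1000 and under 50000 counts, 23.2% were below 1 and 21.2% above 1. Most of the 28 have more counts than most of these 5773, so the shares are not matched for abundance. Most of the 73 most abundant genes, the 10 members among them, thus lay lower in the FRβ KO library. The median log2 ratio of the 5773 was -0.0005. The part of abundance in the members' values was not tested.

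**Figure D2:**
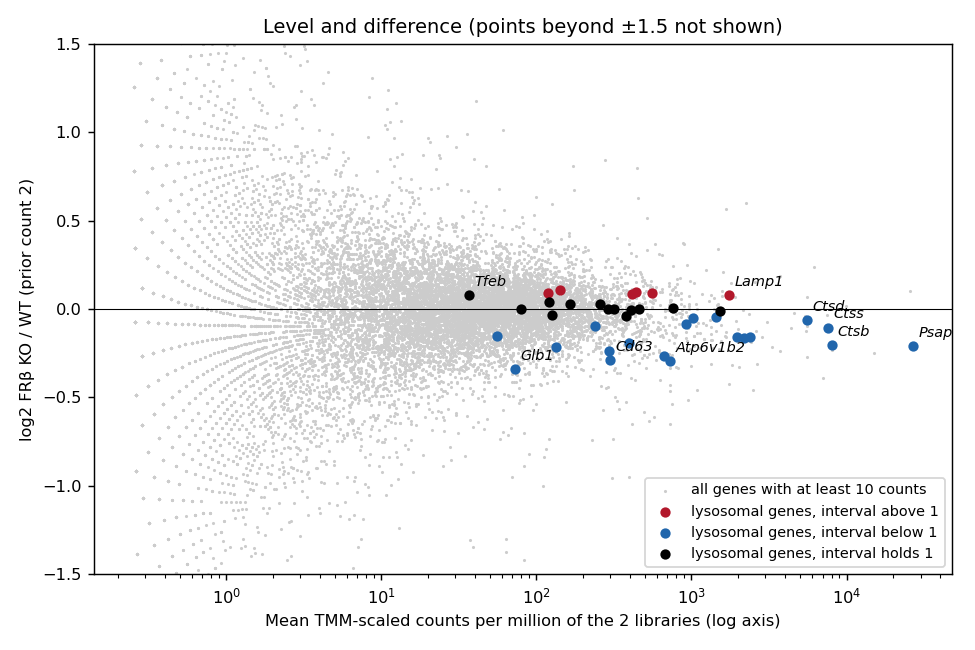
Mean level of each gene (x axis, CPM, that is counts over library size after TMM scaling, log axis) against its log2 KO/WT ratio (y axis), in grey for all genes with at least 10 counts and in colour for the 38 lysosomal genes by the position of their interval. The lysosomal genes lie in a narrow band around 0, *Psap*, at the far right, and *Ctsb* lie at log2 -0.21, *Ctss* and *Ctsd* nearer to 0, and *Lamp1* above it, while the lowest value is that of the less abundant *Glb1*.

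Cysteine cathepsins and legumain, the endopeptidases and exopeptidases that do much of the protein breakdown in lysosomes, summed to 421475 counts in FRβ KO and 435536 in WT (ratio 0.902, 0.898 to 0.906). Of 7 members, 5 had an interval below 1 (71.4%) and 0 above 1, against 23.8% and 21.3% of genes with at least 1000 counts. Most of these genes are abundant: 5 of the 7 had at least 50000 counts, of which 4 were below 1 (80%), and of all genes that abundant 64.4% were below 1. That share counts these cathepsins too. The median log2 ratio of the 5 was -0.16, and that of the 63 genes of that abundance that are not members was -0.07. The part of abundance in the cathepsin ratios was not tested. Cathepsin L (*Ctsl*), which trims the invariant chain in thymic epithelium, had 12106 counts in FRβ KO and 13574 in WT (ratio 0.831, 0.811 to 0.852). It was the lowest of the group. Cathepsin B (*Ctsb*) had 149259 counts in FRβ KO and 160491 in WT (ratio 0.867, 0.861 to 0.873). For cathepsin C (*Ctsc*), which activates granule serine proteases, the counts were 41094 in FRβ KO and 42858 in WT (ratio 0.894, 0.882 to 0.906). These were lower by about the same factor as cathepsin Z (*Ctsz*), with 36956 counts in FRβ KO and 38497 in WT (ratio 0.895, 0.882 to 0.908). Cathepsin S (*Ctss*), the main invariant chain protease of macrophages and dendritic cells, had 145429 counts in FRβ KO and 145761 in WT (ratio 0.930, 0.923 to 0.937). Intervals held 1 for cathepsin H (*Ctsh*, 30332 counts in FRβ KO and 28474 in WT, ratio 0.993) and for legumain (*Lgmn*, 6299 counts in FRβ KO and 5881 in WT, ratio 0.999), the asparaginyl endopeptidase.

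Cathepsin D (*Ctsd*) and cathepsin A (*Ctsa*), an aspartic protease and a serine carboxypeptidase that also protects β-galactosidase and neuraminidase, stood closer to 1. *Ctsd* had 109052 counts in FRβ KO and 106000 in WT (ratio 0.959, 0.951 to 0.967). *Ctsa* had 20013 counts in FRβ KO and 19324 in WT (ratio 0.966, 0.947 to 0.985). In both, raw counts were higher in FRβ KO and the ratio is below 1 only after scaling, since the FRβ KO size was 1.07 times the WT size. Exons of *Ctsa* overlap those of *Pltp* and *Neurl2* on the other strand, and the sources used here do not say whether the counting used strand.

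**Figure D3:**
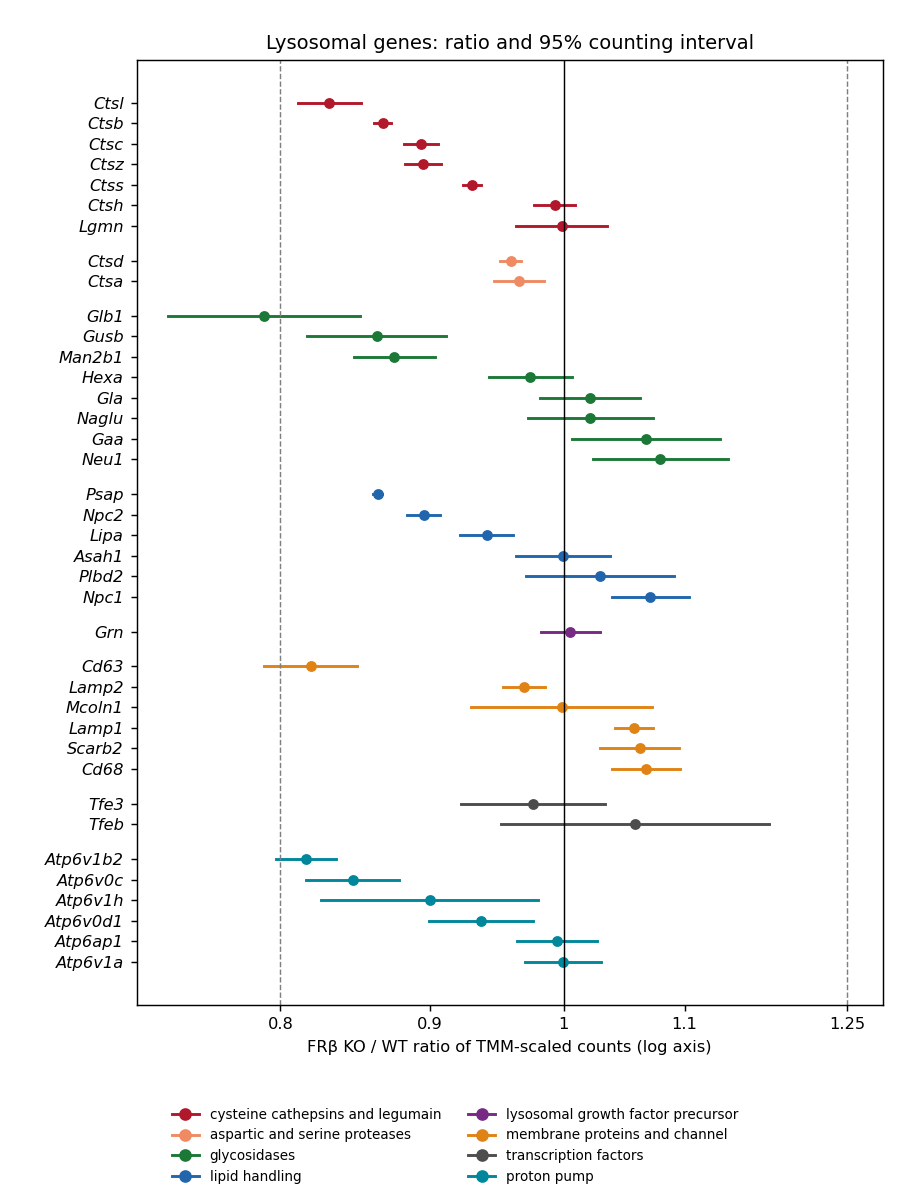
KO/WT ratio (x axis, log axis) of each of the 38 genes, grouped by role, with dots for the ratio and bars for the 95% counting interval of 1 pooled library per genotype. The solid line marks 1 and the dashed lines 20% below and 25% above it. The cathepsins and pump subunits lie at or left of 1, glycosidases lie on both sides, and *Glb1* at 0.790 is the only dot left of 0.8.

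Glycosidases, which take sugar chains apart one residue at a time, went both ways. Of 8 members 2 had an interval above 1 (25%) and 3 below 1 (37.5%), against the same 21.3% and 23.8%, and their sum was 32470 counts in FRβ KO and 31619 in WT (ratio 0.957, 0.943 to 0.972). β-Galactosidase (*Glb1*, ENSMUSG00000045594, chr9:114401076-114474898), the enzyme lacking in GM1 gangliosidosis, had 1275 counts in FRβ KO and 1505 in WT (ratio 0.790, 0.732 to 0.852), the lowest point ratio of all 38. *Tmppe*, which shares exon sequence with *Glb1* on the same strand, was counted apart, with 366 counts in FRβ KO and 377 in WT. β-Glucuronidase (*Gusb*) had 2480 counts in FRβ KO and 2679 in WT (ratio 0.863, 0.817 to 0.912), and α-mannosidase (*Man2b1*) 7422 in FRβ KO and 7906 in WT (ratio 0.875, 0.848 to 0.903). Higher in FRβ KO were sialidase 1 (*Neu1*), with 2938 counts in FRβ KO and 2538 in WT (ratio 1.08, 1.02 to 1.14), and the glycogen-degrading α-glucosidase (*Gaa*), with 2450 in FRβ KO and 2141 in WT (ratio 1.07, 1.01 to 1.13). Values for α-galactosidase (*Gla*, ratio 1.02), the heparan sulfate enzyme *Naglu* (ratio 1.02) and the hexosaminidase subunit *Hexa* (ratio 0.974) had intervals that held 1.

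Lipid handling was dominated by prosaposin. *Psap* (ENSMUSG00000004207, chr10:60277627-60302597 in mm10), the precursor of the saposins that present sphingolipids to their hydrolases, had the highest count of any gene in the table, with 498799 in FRβ KO and 538417 in WT (ratio 0.864, 0.860 to 0.867). Without *Psap*, the other 37 members took 4.12% of the counts in FRβ KO and 4.33% in WT (ratio of the sums 0.930, 0.927 to 0.933), whereas with it the ratio was 0.904 (0.901 to 0.906). The 2 Niemann-Pick type C genes, whose proteins pass cholesterol out of lysosomes, stood on opposite sides of 1. The soluble *Npc2* had 44994 counts in FRβ KO and 46841 in WT (ratio 0.896, 0.884 to 0.907), and the membrane protein gene *Npc1* had 9002 in FRβ KO and 7839 in WT (ratio 1.07, 1.04 to 1.10). Exons of *Npc1* overlap *Rmc1* on the other strand. Acid lipase (*Lipa*), which frees cholesterol from its esters, had 17933 counts in FRβ KO and 17762 in WT (ratio 0.941, 0.922 to 0.961). Acid ceramidase (*Asah1*, ratio 0.999, 0.963 to 1.04) and the phospholipase B-like gene *Plbd2* (ratio 1.03, 0.971 to 1.09) had intervals that held 1. Progranulin (*Grn*), the precursor of the lysosomal granulins, had 15345 counts in FRβ KO and 14229 in WT (ratio 1.01, 0.983 to 1.03).

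The membrane proteins held 3 of the 6 members with an interval above 1. Of the 6 genes in this group, 3 were above 1 (50%) and 2 below 1 (33.3%). Over all genes with at least 1000 counts the shares were 21.3% and 23.8%. The sum of the group was 91007 counts in FRβ KO and 83846 in WT (ratio 1.01, 1.00 to 1.02). *Lamp1* (ENSMUSG00000031447, chr8:13159161-13175338), one of the glycoproteins that coat the inner face of the lysosomal membrane, had 35775 counts in FRβ KO and 31549 in WT (ratio 1.06, 1.04 to 1.07). *Cd68*, a macrophage glycoprotein of the same family, had 11530 in FRβ KO and 10077 in WT (ratio 1.07, 1.04 to 1.10). *Scarb2*, which encodes LIMP-2, the receptor that carries glucocerebrosidase to lysosomes, had 8528 in FRβ KO and 7487 in WT (ratio 1.06, 1.03 to 1.10). The relative of *Lamp1*, *Lamp2*, was slightly lower, with 28183 in FRβ KO and 27103 in WT (ratio 0.969, 0.953 to 0.986). *Cd63*, a tetraspanin of late endosomes and exosomes, had 5404 in FRβ KO and 6148 in WT (ratio 0.819, 0.790 to 0.850), and 0.822 when its pseudogene *Cd63-ps* was added. The calcium channel gene *Mcoln1* held 1 (1587 in FRβ KO and 1482 in WT, ratio 0.998).

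Both transcription factor genes held 1. *Tfeb* was the least counted member, with 759 counts in FRβ KO and 669 in WT (ratio 1.06, 0.952 to 1.18). *Tfe3* had 2479 in FRβ KO and 2367 in WT (ratio 0.976, 0.923 to 1.03). Both proteins are controlled largely by their passage between cytosol and nucleus, which RNA counts do not show.

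Of the 6 proton pump members 4 had an interval below 1 (66.7%) and 0 above 1, against 23.8% and 21.3% of genes with at least 1000 counts, with sums of 41471 counts in FRβ KO and 42768 in WT (ratio 0.904, 0.892 to 0.916). *Atp6v1b2* (ENSMUSG00000006273, chr8:69088646-69113711), which encodes the B subunit of the ATP-cleaving V1 sector, had 13095 counts in FRβ KO and 14958 in WT (ratio 0.816, 0.797 to 0.836), and no member lay farther from 1 by its interval. *Atp6v0c*, the proteolipid of the membrane-bound V0 sector, had 5419 in FRβ KO and 5966 in WT (ratio 0.847, 0.816 to 0.879), or 0.853 with its pseudogenes added. *Atp6v1h*, a regulatory V1 subunit, had 1052 in FRβ KO and 1090 in WT (ratio 0.900, 0.826 to 0.980), and *Atp6v0d1*, a V0 subunit, 4621 in FRβ KO and 4597 in WT (ratio 0.937, 0.899 to 0.976). The catalytic subunit gene *Atp6v1a* did not share this, with 9135 in FRβ KO and 8520 in WT (ratio 1.00, 0.970 to 1.03), and neither did the accessory gene *Atp6ap1* (ratio 0.995, 0.964 to 1.03).

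Of 13 further subunit and accessory genes measured, 8 had an interval below 1 and 0 above 1. The other 5 held 1, with 3 point ratios over 1 (*Atp6v0a2* 1.05, *Atp6v0e* 1.03 and *Atp6v1c1* 1.01). Over the whole pump 12 of 19 were below 1 (63.2%), 7 held 1 and 0 were above 1. Of its 18 genes with at least 1000 counts 66.7% were below 1, against 23.8% of all genes with at least 1000 counts. Most of the 18 have more counts than most of those genes, so these shares are not matched for abundance. With scaling by total counts, 2 of the 13 were above 1. The median log2 ratio of the 19 was -0.10 and the ratio of their sums 0.927 (0.919 to 0.935). *Atp6v1f* had 1276 counts in FRβ KO and 1459 in WT (ratio 0.815, 0.756 to 0.880), *Atp6v1g1* 1813 in FRβ KO and 2049 in WT (ratio 0.825, 0.774 to 0.879), and *Atp6v1d* 1778 in FRβ KO and 1971 in WT (ratio 0.841, 0.788 to 0.897). All 3 encode parts of the stalks of V1.

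**Figure D4:**
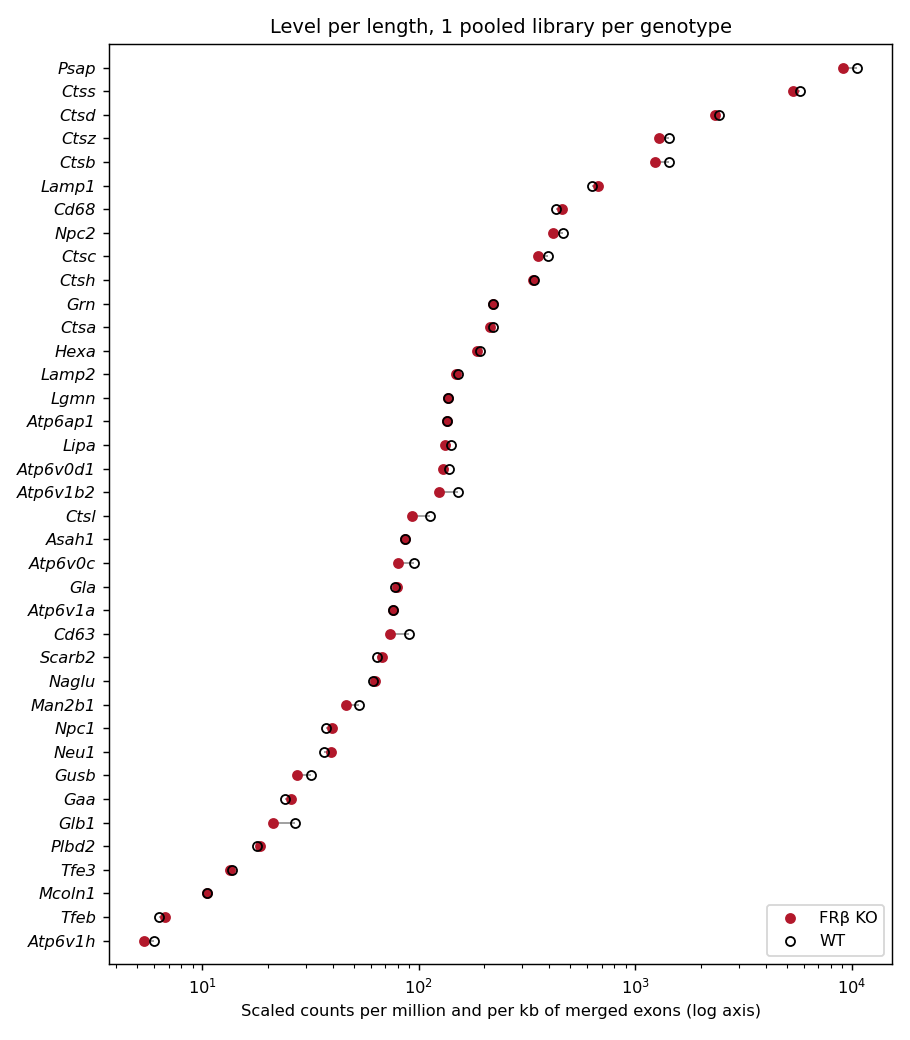
Level per length (x axis, TMM-scaled CPM per kb of merged exons, log axis) of each member in FRβ KO (filled) and WT (open), 1 pooled library each, ordered by the FRβ KO level. *Psap*, *Ctss* and *Ctsd* lead in both libraries and *Atp6v1h* and *Tfeb* are last, and the gap between genotypes is small beside the spread between genes.

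The order of levels among the members was nearly the same in both genotypes. Per kb of merged exons, *Psap* had 9093 scaled CPM in FRβ KO and 10528 in WT, followed by *Ctss* (5357 in FRβ KO and 5759 in WT) and *Ctsd* (2320 in FRβ KO and 2419 in WT). *Ctsz* and *Ctsb* came next and lay close together. At the low end stood *Tfeb* (6.70 in FRβ KO and 6.33 in WT) and *Atp6v1h* (5.40 in FRβ KO and 6.00 in WT). Dividing by the longest transcript instead moved the level of 12 members by over 1.5 times, so places in the middle of the order are not firm.

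Transcript length also went with the ratio in these libraries. Over genes with at least 1000 counts, split into 4 groups of equal size by the length of the longest transcript, the median log2 ratio was -0.04, -0.02, 0.003 and 0.05 from the shortest to the longest group. Members in those groups had medians of -0.008 (11 genes), -0.05 (17), -0.09 (7) and -0.03 (3). The member median thus lay below that of all genes in each of the 3 longer groups, and above it in the group of the 11 shortest. This split was chosen after the values were seen, and the part of length in the members' ratios was not tested.

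Around the 38 members, 9 lists of other lysosomal and related genes with 160 measured genes had 34 intervals above 1 and 38 below 1, with a median log2 ratio of 0.003. Of these, 138 had at least 1000 counts, with 22.5% above 1 and 25.4% below, close to the 21.3% and 23.8% of all such genes. Other proteases had 3 of 10 above 1 and 2 below (*Cpq*, ratio 0.873, and *Dpp7*, ratio 0.878, both peptidases), and their median log2 ratio was -0.14, with 6 ratios under 1. Of the 8 with at least 1000 counts, 37.5% were above 1 and 25% below. *Prcp*, a lysosomal carboxypeptidase, had 4281 counts in FRβ KO and 2504 in WT (ratio 1.59, 1.52 to 1.68), more than any member. It lies on chromosome 7, 8.91 Mb from *Folr2*, and *Tpp1*, a tripeptidyl peptidase (ratio 1.08, 1.03 to 1.13), lies 3.89 Mb from *Folr2*. Nearer to *Folr2*, *Lamtor1* (0.0487 Mb, ratio 0.896, 0.843 to 0.954) and *Uvrag* (2.70 Mb, ratio 0.889, 0.829 to 0.954) were below 1. *Smpd1* (3.70 Mb, ratio 0.924, 0.821 to 1.04) held 1. The part of nearness to *Folr2* in these ratios was not tested. Of the members, *Ctsc* and *Ctsd* are on that chromosome, at 13.5 and 40.5 Mb. *Ctso* had 887 counts in FRβ KO and 668 in WT (ratio 1.24, 1.12 to 1.37).

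Other glycosidases and sulfatases had 5 of 21 above 1 and 4 below. Of the 15 with at least 1000 counts, 26.7% were above 1 and 20% below, against 21.3% and 23.8% of all such genes. Higher was *Hgsnat*, an acetyltransferase of heparan sulfate breakdown (4843 counts in FRβ KO and 3710 in WT, ratio 1.22). *Manba* (ratio 0.801) and the hyaluronidase *Hyal2* (ratio 0.815) were lower. Lipid hydrolases and activators had 4 of 14 above 1 (28.6%) and 2 below (14.3%). Among them the GM2 activator gene *Gm2a* stood lowest, at 14015 counts in FRβ KO and 16400 in WT (ratio 0.797, 0.779 to 0.815). *Plbd1* (2443 in FRβ KO and 1784 in WT, ratio 1.28) and the tartrate-resistant phosphatase *Acp5* (ratio 1.16) were higher.

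Of 24 further membrane proteins and transporters 7 were above 1 and 5 below. Of the 21 with at least 1000 counts, 33.3% were above 1 and 23.8% below, against 21.3% and 23.8% of all such genes. *Gpnmb*, a glycoprotein of lysosome-rich macrophages, had 121558 counts in FRβ KO and 148682 in WT (ratio 0.762, 0.756 to 0.768), and *Mfsd12*, a cysteine transporter, 8993 in FRβ KO and 10563 in WT (ratio 0.794, 0.772 to 0.816). *Tpcn1*, a cation channel, was higher (1300 in FRβ KO and 937 in WT, ratio 1.29, 1.19 to 1.41). Genes of delivery to lysosomes had 2 of 27 above 1 and 6 below, and of the 25 with at least 1000 counts 8% were above 1 and 24% below. *Sort1*, a sorting receptor, stood at 1.16, *Arl8a*, a GTPase that moves lysosomes, at 0.852, and *Plekhm1*, an adaptor of lysosome fusion, at 0.892.

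Regulators of TFEB and of the kinase complex TORC1 had 8 of 24 above 1 and 3 below, with a median log2 ratio of 0.07. Of the 21 with at least 1000 counts, 38.1% were above 1 and 9.52% below, against 21.3% and 23.8% of all such genes. *Fnip1*, a partner of folliculin, had 3058 counts in FRβ KO and 2513 in WT (ratio 1.13, 1.08 to 1.20). *Rragd*, a Rag GTPase, had 219 in FRβ KO and 281 in WT (ratio 0.727, 0.606 to 0.870), and *Lamtor2*, part of the Ragulator scaffold, 473 in FRβ KO and 547 in WT (ratio 0.806). Autophagy genes had 3 of 19 above 1 and 4 below, and of the 18 with at least 1000 counts 16.7% were above 1 and 16.7% below. The autophagy receptor gene *Sqstm1* had 25483 in FRβ KO and 26179 in WT (ratio 0.907, 0.892 to 0.923), while the kinase gene *Ulk1* (ratio 1.28) and *Atg5* (ratio 1.20) were higher.

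Inhibitors of lysosomal proteases had 2 of 8 above 1 and 4 below. The 4 with at least 1000 counts were all below 1, against 23.8% of all such genes. Cystatin B (*Cstb*), a cytosolic inhibitor of cysteine cathepsins, had 5833 counts in FRβ KO and 6979 in WT (ratio 0.779, 0.752 to 0.807). *Serpinb9*, an inhibitor of granzyme B, had 4402 in FRβ KO and 5550 in WT (ratio 0.739, 0.711 to 0.769). Cystatin F (*Cst7*), which acts inside endosomes and lysosomes, was higher, with 525 in FRβ KO and 376 in WT (ratio 1.30, 1.14 to 1.49).

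**Figure D5:**
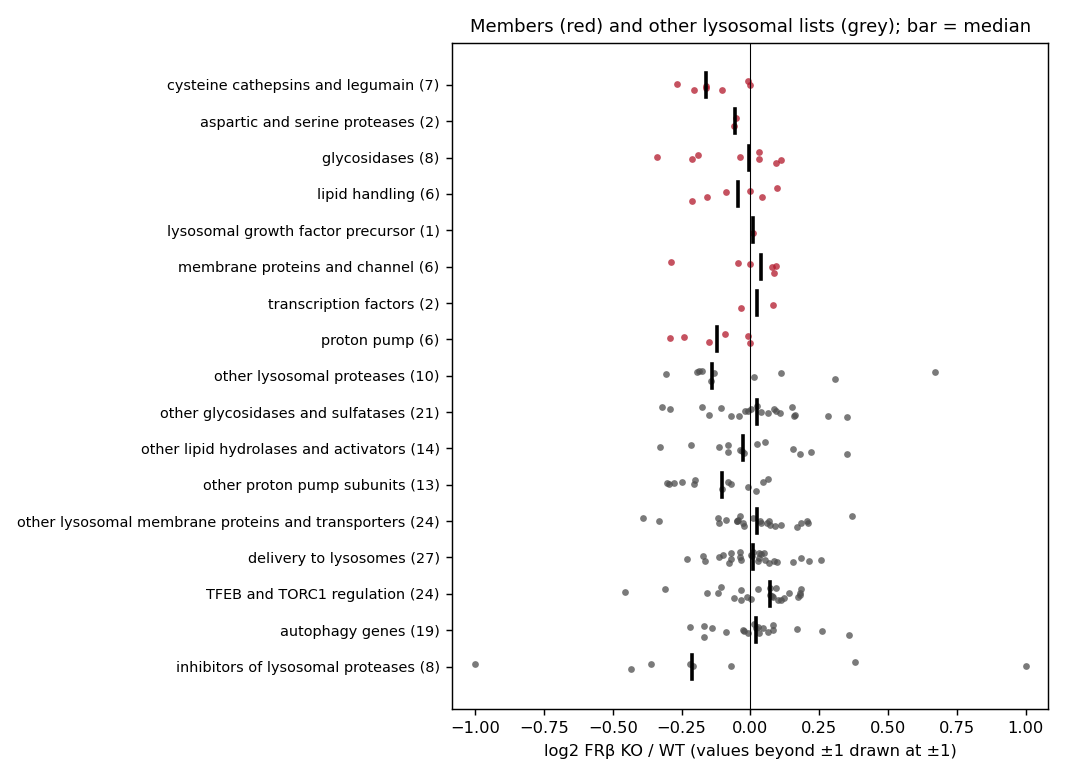
Log2 KO/WT ratio (x axis) of every measured gene in the 8 role groups of the 38 members (red) and in the 9 other lists (grey), with the number of genes in brackets and a bar at the median. The lowest median is that of the protease inhibitors (-0.21). Those of cysteine cathepsins (-0.16), other proteases (-0.14) and both pump groups also lie below 0. The medians of glycosidases, membrane proteins and TORC1 regulation lie near or above 0.

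Markers of the cells are given beside these results, since several were lower together with the abundant members. The 10 macrophage markers summed to 18361 scaled CPM in FRβ KO and 20699 in WT (ratio 0.887), with 4 intervals above 1 (40%) and 5 below (50%). Over all genes with at least 1000 counts the shares were 21.3% and 23.8%. *Lyz2*, encoding lysozyme, made up most of the macrophage marker sum, with 275618 counts in FRβ KO and 304923 in WT (ratio 0.843). *Cd68* (ratio 1.07) is both a marker above 1 and a member, so these markers are not separate from the members. *Csf1r*, the M-CSF receptor (ratio 1.02), and *Adgre1* (ratio 0.999) stood near 1, and *Cd14* was higher (11218 in FRβ KO and 6017 in WT, ratio 1.74). The 10 markers of M1-like activation summed to 12263 scaled CPM in FRβ KO and 13935 in WT (ratio 0.880), with 3 intervals above 1 and 7 below. Of the 8 M1-like markers with at least 1000 counts, 25% were above 1 and 75% below. Among the 10, *Gbp2*, an interferon-induced GTPase, had 147806 counts in FRβ KO and 161942 in WT (ratio 0.851), and *Il12b*, an interleukin 12 subunit, 533 in FRβ KO and 253 in WT (ratio 1.96). The neutrophil markers had a ratio of sums of 0.597 (0.528 to 0.674), nearly all of it from *S100a8*. Of the 5 measured, 1 was below 1 (20%) and 0 above, and *S100a9* had only 6 counts in FRβ KO and 7 in WT. The dendritic cell markers had a ratio of sums of 1.07 (0.976 to 1.18). Of the 8 measured, 1 was above 1 (12.5%) and 1 below (12.5%). Over all genes with at least 10 counts the shares were 14.7% above and 16.8% below. Osteoclasts and fused macrophages also express many pump subunits and cathepsins. Their 10 markers, 8 of which were measured, summed to 609 scaled CPM in FRβ KO and 686 in WT (ratio 0.887), with 2 above 1 and 4 below. Of the 6 with at least 1000 counts, 33.3% were above 1 and 50% below. Of the 8 measured, those above 1 were *Acp5* (1853 counts in FRβ KO and 1484 in WT, ratio 1.16) and *Nfatc1* (1400 in FRβ KO and 1192 in WT, ratio 1.09). *Ctsk* (ratio 0.912) and *Mmp9* (ratio 0.859) held 1. Among the 4 below 1, *Ocstamp* had 97 counts in FRβ KO and 326 in WT (ratio 0.277, 0.219 to 0.349). *Atp6v0d2* had 5419 in FRβ KO and 5818 in WT (ratio 0.868). It is also a pump subunit and had the most counts of these markers, so their sum is not separate from the pump result. *Oscar* and *Calcr* had at most 2 counts in either library. Whether the number of such cells differed was not tested. The part of these markers in the members' ratios was not tested.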

How the data were processed

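RNA-seq of M1-like BMDMs gave 1 library of pooled RNA per genotype. The authors deposited unnormalized read counts by gene. Their provider trimmed paired-end reads, used HISAT2 to align to mm10, and counted by gene. How strand was handled, which annotation release was used and what program counted were not given in the sources used here. Of the numeric columns 0 were left out. The labels' processing notes also name edgeR.

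Symbols, coordinates and lengths came from GENCODE M21, which lacked 37 identifiers. Of identifiers with a common symbol, that with more counts was kept. Library sizes were scaled by TMM (edgeR 4.0.16, R 4.3.3). KO/WT ratios have exact (Clopper-Pearson) 95% intervals, computed in scipy 1.17.1 under Python 3.11.15, which cover counting error only. Reads had no molecular identifiers, so intervals may be too narrow. Log2 ratios used a prior count of 2. With 1 library per genotype there is no replicate error and no p-value. A gene was called measured at a total of 10 counts or more. The floor of 3 counts was 0.150 CPM in FRβ KO and 0.161 in WT. The interval was tested on simulated counts with counting error only, so that test cannot speak to the spread between mice.

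Members, lists and rules were chosen with earlier results of these data known. The text names all 38 members, up to 3 genes per list by how far their interval stays from 1 (50 counts or more), *Folr2*, and marker genes, the last chosen after their values were seen. Some further listed genes are named to show the other direction or their distance from *Folr2*. Promoters came from RefSeq (GRCm38.p6), the first listed per gene, and were not used from chromosome 18. Copies were searched with blastn 2.17.0 (at least 95% identity over at least 300 bases, a length set after the hits were seen). Alternatives were 4 other scalings, a 99% interval, count filters set to 1 and to 50, a prior of 0.125 or 5, other transcript lengths, another promoter window and any listed promoter.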

Additional observations from a re-analysis of the deposited data

How the results depend on the processing

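The counts of members with an interval above 1 and below 1 were 6 and 19 with TMM, and the same with upper quartile scaling, DESeq2 1.42.0 size factors and the median of genes with at least 1000 counts. Scaling by total counts, which shifts every log2 ratio by 0.04, gave 9 and 15. *Ctsh*, *Gla* and *Grn* were then above 1, and *Ctsa*, *Lamp2*, *Atp6v0d1* and *Atp6v1h* held 1. A 99% interval gave 5 and 18, with *Gaa* and *Atp6v1h* holding 1. Under these settings no member had its whole interval past 25% above or 20% below 1, and no member with an interval off 1 changed sides. The median log2 ratio lay between -0.04 and -0.005, and was -0.005 without members of at least 50000 counts, a choice made after seeing the data. The ratio of the members' sums was 0.926 with total counts, 0.910 with upper quartile, 0.912 with DESeq2 size factors, and 0.930 without *Psap*. The median log2 ratio of the glycosidases, just below 0 with TMM, was above 0 with total counts, upper quartile and DESeq2 scaling. The share of members with CACGTG was 32.3%, 19.4% in the window from 100 bases before to 50 after the start (4.41% of all genes) and 38.7% with any listed promoter (8.09%). In the other lists, scaling by total counts gave 1 protease below 1 (2 with TMM) and moved the number above 1 to 8 glycosidases and sulfatases (from 5), 6 delivery genes (from 2), 5 autophagy genes (from 3) and 2 pump subunits (from 0, and 1 with upper quartile or DESeq2 scaling). A 99% interval gave 1 protease and 2 autophagy genes below 1 (2 and 4 with 95%), and 1 glycosidase or sulfatase and 1 protease inhibitor above 1 (5 and 2 with 95%). It left 1408 of all genes with at least 10 counts above 1, against 2137. A minimum of 50 counts left 1 protease inhibitor above 1, without *Stfa3*. No replicate could be left out, and no paired analysis was possible because each genotype has 1 library. Depth is not the limit for most members, but the spread between mice cannot be seen.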
